A study of Mus musculus with 4 samples.

Results

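miR-670 is a mouse microRNA whose hairpin gives 2 mature arms, mmu-miR-670-5p and mmu-miR-670-3p. Both arms were chosen by name, 2 of the 1907 mature miRNAs listed, because mmu-miR-670-3p had 0 reads in 1 library of embryonic stem (ES) cells and more in the aggregates made from them. The levels below are therefore a description and carry no test. Small RNA was sequenced from E14Tg2A cells, a mouse ES cell line of strain 129/Ola, at 2 stages and from 2 media. ES serum cells (0 days in vitro) grew in medium with 10% fetal calf serum and 1000 U/mL leukemia inhibitory factor (LIF). ES 2iL cells (0 days) were moved for several passages to serum-free N2/B27 medium with 1000 U/mL LIF, the MEK inhibitor PD0325901 (1 µM) and the GSK3 inhibitor CHIR99021 (3 µM), which keeps them in the ground state of pluripotency. ELA serum and ELA 2iL are epiblast-like aggregates formed from each kind of ES cell during 2 days of floating culture in a minimal N2/B27 medium, so that their names refer to the earlier ES medium. All groups share 1 cell line, and each is 1 library made from RNA pooled over 3 sets of experiments, so no value has a replicate error.

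A miRNA hairpin is cut out of a longer primary transcript by the nuclease Drosha and then trimmed by Dicer to a short duplex. One strand of the duplex, the guide, is kept by an Argonaute protein, while the other is usually degraded. The guide pairs with messenger RNAs mainly through its seed, bases 2 to 8, and lowers their translation or stability. In mouse pluripotent cells, the miR-290/miR-295 cluster is known for high levels in ES cells and the miR-302/miR-367 cluster for rising levels at the step to the primed, epiblast-like state.

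The hairpin is shown first, since the values of both arms come from it. It was read from RefSeq and is identical to mm9 chr2:94101457-94101556 on the minus strand. The capitals mark the mature arms, with the 5p arm at bases 21 to 42 and the 3p arm at bases 60 to 84.
Mir670 hairpin: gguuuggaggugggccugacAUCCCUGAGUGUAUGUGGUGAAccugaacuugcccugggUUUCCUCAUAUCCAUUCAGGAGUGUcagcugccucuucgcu
The mature arms follow with the seed in capitals.
mmu-miR-670-5p: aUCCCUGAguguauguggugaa
mmu-miR-670-3p: uUUCCUCAuauccauucaggagugu

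Reads assigned to the listed miRNAs numbered 8056984 (serum) and 2767016 (2iL) in the ES libraries, and 4309257 and 587363 in the ELA libraries. Levels are given in RPM, the reads of a miRNA scaled to a library total of 1000000. A level of 3 reads, taken as the smallest detectable, equalled 0.372 RPM for ES serum and 1.08 for ES 2iL, and 0.696 and 5.11 RPM for the ELA libraries. All intervals and limits below cover counting error only. The stage labels were checked with the marker clusters. The 10 arms of miR-302/miR-367 summed to 5952 (serum) and 78.4 RPM (2iL) at the ES stage, and to 37319 and 7084 RPM at the ELA stage. The 18 listed arms of miR-290/miR-295, of which 11 passed the filter on low counts, summed to 86119, 183326, 55535 and 140756 RPM in the same order. Groups follow the sample titles, to which the column names correspond. In the labels' description field, ES 2iL and ELA serum are swapped, and by that field the library with 0 reads of miR-670 would be ELA serum. The miR-302/miR-367 sum would then be 78.4 RPM in ELA serum and 37319 RPM in ES 2iL, whereas by the titles it is higher in ELA than in ES cells in both media. The miR-290/miR-295 sum would be higher in ELA in both media by the description field (183326 against 86119 RPM for serum, 140756 against 55535 RPM for 2iL) and is lower in ELA in both by the titles. By the titles, the median difference of the 11 arms in log2(RPM + 1), ELA minus ES, was −0.82 in serum and −0.39 in 2iL. Over the 599 miRNAs that passed the filter it was −0.15 and −0.31. In 2iL the median arm thus fell little more than the rest.

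mmu-miR-670-3p measured 46.4 RPM in ES serum (374 reads, Wilson 95% interval 41.9 to 51.4). It had 0 reads in ES 2iL, which allows a level of up to 1.08 RPM by the limit of 3 reads and 1.39 RPM by the Wilson interval. In ELA serum it measured 154 RPM (665 reads, 143 to 167), and in ELA 2iL 150 RPM (88 reads, 122 to 185). The ES libraries were thus both below the ELA libraries, ES 2iL was the lowest of the 4, and the intervals of the ELA libraries overlapped. Among the miRNAs with reads in each library it ranked 266 of 1034 in ES serum, 176 of 930 in ELA serum and 193 of 691 in ELA 2iL.

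**Figure D1:**
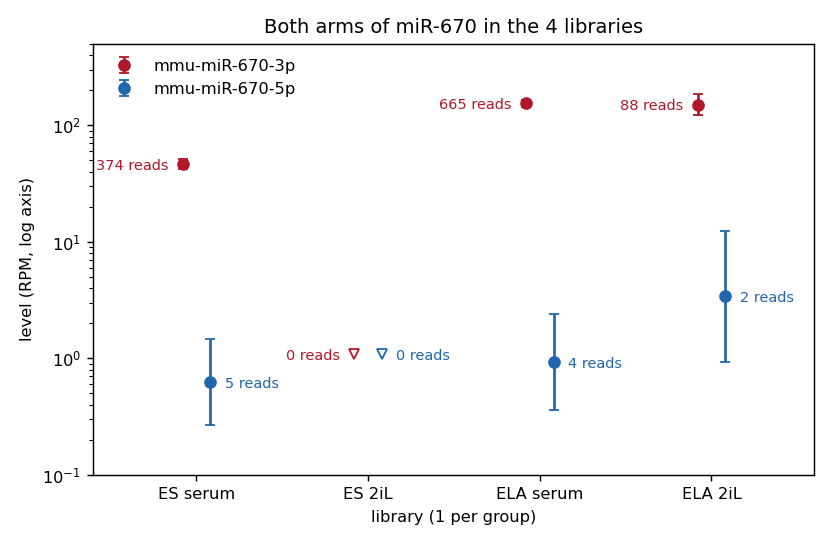
Level of each arm of miR-670 in RPM (log axis) in the 4 libraries, with Wilson 95% counting intervals and read numbers; open triangles mark 0 reads, drawn at the 1.08 RPM that 3 reads would give. mmu-miR-670-3p has 0 reads in ES 2iL and lies near 150 RPM in both ELA libraries, and mmu-miR-670-5p never exceeds 5 reads.

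mmu-miR-670-5p was found in 5 reads (0.621 RPM) in serum and 0 reads in 2iL among the ES libraries, and in 4 reads (0.928 RPM) in serum and 2 reads (3.41 RPM, under the limit of 5.11) in 2iL among the ELA libraries. Only the 3p arm passed the filter of at least 10 reads in at least 2 libraries, so 1 of the 2 members was among the 599 miRNAs compared. For the 5p arm, ELA serum stood at 1.496 times ES serum, with an exact interval from 0.297 to 6.95, and a difference was not detectable at this depth. ELA 2iL stood at 3.67 times ELA serum, with an exact interval from 0.332 to 25.6. The 0 reads of the 5p arm in ES 2iL say little, because 1.72 reads would be met there at the level of ES serum, 2.57 at that of ELA serum and 9.42 at that of ELA 2iL. The same calculation for the 3p arm gives 128, 427 and 415 reads, where 0 were found. These calculations were chosen after the values were seen. The 0 reads of the 3p arm in ES 2iL are also what the choice rested on, so they are no separate support.

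The 3p arm was the guide by abundance in every library with reads. It made up 98.7% of the reads of both arms in ES serum (Wilson 95% interval 96.9 to 99.4, 379 reads), 99.4% in ELA serum (98.5 to 99.8, 669 reads) and 97.8% in ELA 2iL (92.3 to 99.4, 90 reads). These shares are a description too, since they hold the 3p reads that the choice rested on, and the 2 to 5 reads of the 5p arm limit them. Among 166 hairpin names with at least 50 reads over both arms in the same 3 libraries, a limit set after the values were seen, 79 were led by the 3p arm throughout, 77 by the 5p arm and 10 switched. In 60 of them (36.1%) the leading arm held at least the lowest share seen for miR-670, so a division this uneven was common.

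The 3p arm lies across an annotated splice site. By GENCODE vM1, Mir670 overlaps E530001K10Rik (mm9 chromosome 2, 94092036 to 94104915), a gene with the same orientation, which has 2 annotated transcripts. In ENSMUST00000129661.1 the hairpin lies wholly in the intron. In ENSMUST00000134563.1, exon 2 (94101123 to 94101478) begins inside the hairpin, which leaves 78 hairpin bases in the intron and 22 in the exon. The 3p arm (94101473 to 94101497) itself crosses this edge, with 19 intronic bases that end in AG, the bases that end nearly all introns, and 6 exonic bases. In the mature sequence below the capitals are the intronic part.
mmu-miR-670-3p: UUUCCUCAUAUCCAUUCAGgagugu
Of the 17 bases before the AG, 14 were pyrimidines. The 5p arm (94101515 to 94101536) is intronic in both transcripts. Over the annotation, 28 of 1577 miRNA hairpins (1.78%) crossed the start of an exon after an intron. This feature was looked for after the locus had been seen, and small RNA reads do not show which host transcript was made.

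**Figure D2:**
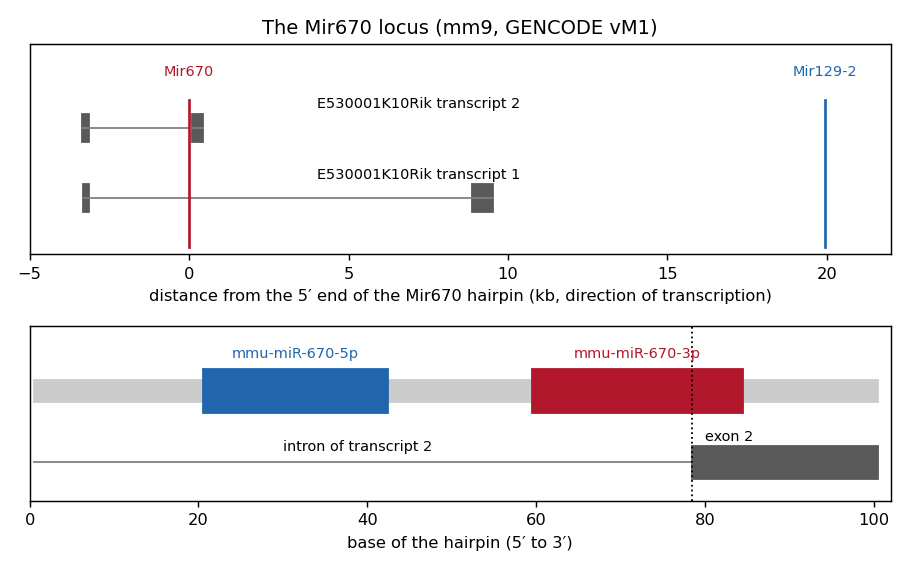
The Mir670 locus in the direction of transcription, by distance from the start of the hairpin; top, exons (boxes) of the 2 E530001K10Rik transcripts and the positions of Mir670 and Mir129-2 in kb; bottom, the 100 bases of the hairpin with both mature arms. The dotted line is the start of exon 2, which leaves 19 bases of mmu-miR-670-3p in the intron and 6 in the exon.

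Between the stages, mmu-miR-670-3p was higher in ELA in both media. In serum the ratio of ELA to ES was 3.32 (exact 95% interval 2.92 to 3.78), a difference of 1.71 in log2(RPM + 1). Of the 599 miRNAs compared, 9.18% were higher by at least 1 on this scale, 23 rose more than mmu-miR-670-3p, and the median was −0.15. In 2iL the level was at least 138-fold higher in ELA, reckoned against 3 reads in ES 2iL, and the exact 95% lower limit of the ratio was 110. The difference was 7.24 in log2(RPM + 1). Both this value and its rank depend on the pseudocount, as 0 of the 599 miRNAs had a larger one with 0.5 or 1 RPM and 5 had with 5 RPM. Here 19% were higher by at least 1 and the median was −0.31. The differences in the 2 media were not tested against each other, since each compares 1 library with 1 library.

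Between the media, the 3p arm was at least 42.8-fold lower in ES 2iL than in ES serum, reckoned in the same way (34.6-fold at the exact 95% limit), with a difference of −5.57 in log2(RPM + 1) against a median of 0.43. Of the 599 miRNAs, 18.7% were lower by at least 1 and 6 fell more, against 0 with a pseudocount of 0.5 RPM and 12 with 5 RPM. In ELA, by contrast, the ratio of 2iL to serum was 0.971 (exact interval 0.768 to 1.21) and the difference in log2(RPM + 1) was −0.04, while 38.6% of the 599 miRNAs differed by at least 1 in either direction. With TMM factors this difference was −0.48 and with DESeq2 size factors −0.52, both outside the counting interval under RPM. The median of all tested miRNAs moved along, and relative to it the difference was −0.34 under RPM, −0.35 under TMM and −0.35 under DESeq2 size factors.

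**Figure D3:**
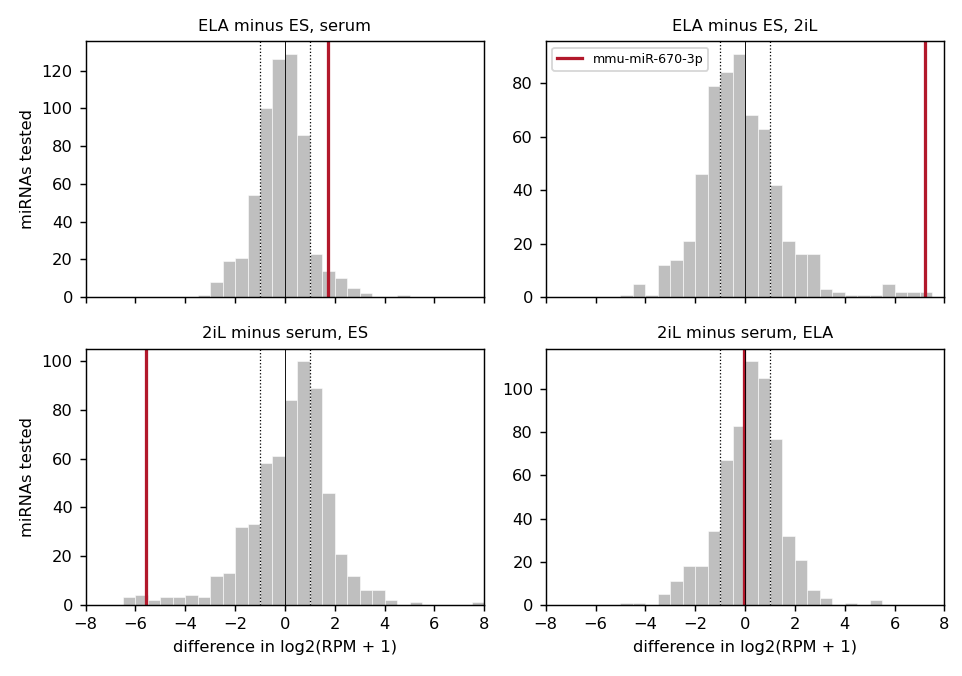
Differences in log2(RPM + 1) of the 599 miRNAs compared, in bins of 0.5, for each pair of libraries, with mmu-miR-670-3p as a red line and a difference of 1 in either direction dotted. It stands at the right end in 2iL (7.24), near the left end between the ES libraries (−5.57) and at −0.04 between the ELA libraries.

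The 5 miRNAs with the profile nearest to that of mmu-miR-670-3p over the 4 libraries were mmu-miR-302a-5p, mmu-miR-367-3p, mmu-miR-302d-5p, mmu-miR-302b-5p and mmu-miR-133a-3p. Likeness is the Euclidean distance of log2(RPM + 1) after the mean of the 4 libraries is taken off, which was 0.730, 1.33, 1.36, 1.51 and 1.56 in this order, against a median of 6.39 over 598 miRNAs. All 5 shared the low in ES 2iL and the high in the ELA libraries. This follows from choosing them by likeness to that profile and is no separate finding. The nearest, mmu-miR-302a-5p, measured 335 RPM in ES serum and 5.78 RPM in ES 2iL, against 1845 and 940 RPM in the ELA libraries. By Pearson's r over the same 4 libraries, 1 of these 5 (mmu-miR-302a-5p) was again among the first 5, behind mmu-miR-34b-3p, mmu-miR-34c-5p, mmu-miR-344b-3p and mmu-miR-449c-5p. These 4 are named outside the rule for named miRNAs. Which miRNAs are nearest thus rests on the measure. With 4 libraries there is only a coarse likeness, and the points share the libraries and their depth.

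**Figure D4:**
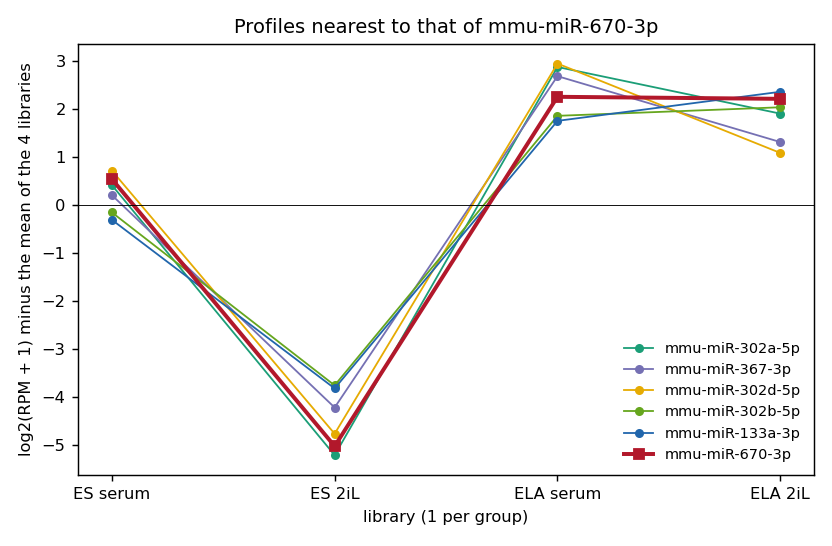
log2(RPM + 1) in each library minus the mean of the 4 libraries, for mmu-miR-670-3p (thick red line) and the 5 miRNAs nearest to it. All have their lowest value in ES 2iL and higher values in both ELA libraries than in ES serum, a shape they were chosen for.

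The mature sequences of the 4 neighbours from the miR-302/miR-367 cluster are given with the seed in capitals, to show that none shares a seed with miR-670, while mmu-miR-302b-5p and mmu-miR-302d-5p share theirs.
mmu-miR-302a-5p: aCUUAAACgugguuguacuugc
mmu-miR-367-3p: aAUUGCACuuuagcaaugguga
mmu-miR-302d-5p: aCUUUAACauggaggcacuugcu
mmu-miR-302b-5p: aCUUUAACaugggaaugcuuucu
With limma on log2(RPM + 1), which fits stage and medium together over the 4 libraries with 1 residual degree of freedom, 0% of the 599 miRNAs passed an adjusted p of 0.05 for stage and 0% for medium, although 125 and 176 had an unadjusted p under 0.05. edgeR's quasi-likelihood test with TMM factors on the recovered reads called 39 (6.51%) for stage and 64 (10.7%) for medium. With library totals in place of TMM factors it called 0 and 39. Each of the 10 miR-302/miR-367 arms was higher in ELA by at least 1, with a median of 2.48 in serum and 5.95 in 2iL, beside medians of −0.15 and −0.31 over all tested. Between the ELA libraries most of the cluster and mmu-miR-670-3p had unlike values. There 8 of the 10 arms were lower in 2iL by at least 1, with a median of −2.03 beside 0.30 over all tested. Of all 599 miRNAs, 38.6% differed there by at least 1 in either direction. Among the neighbours, mmu-miR-302d-5p, mmu-miR-367-3p and mmu-miR-302a-5p had differences of −1.86, −1.37 and −0.97. mmu-miR-302b-5p had 0.18, where mmu-miR-670-3p had −0.04. These differences were not tested against each other.

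A total of 3 miRNAs had 0 reads in ES 2iL and at least 10 RPM in each of the other libraries, out of 375 that met the second condition. Besides mmu-miR-670-3p these were mmu-miR-302b-5p and mmu-miR-133a-3p. mmu-miR-302b-5p measured 11.2 RPM in ES serum, 48.0 in ELA serum and 54.5 in ELA 2iL. mmu-miR-133a-3p, a miRNA known from heart and skeletal muscle, measured 10.4, 46.6 and 71.5 RPM.

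The nearest hairpins on the chromosome are those of miR-129. Mir129-2 lies 19846 bp downstream of Mir670 on the same strand and Mir129b opposite to it, and no other hairpin was annotated within 100 kb. mmu-miR-129-5p measured 45.1 RPM (363 reads) and 7.59 RPM (21 reads) in ES cells from serum and 2iL, and 63.1 RPM (272 reads) and 35.8 RPM (21 reads) in the ELA made from them. It was lowest in ES 2iL too but was found there, and its difference between ELA and ES was 0.48 in serum and 2.10 in 2iL. This mature name belongs to 2 hairpins, so its reads cannot be given to this locus. The arm that is particular to the locus, mmu-miR-129-2-3p, was listed at 0 in all 4 libraries, as was mmu-miR-129b-3p, and mmu-miR-129b-5p had at most 4 reads. For mmu-miR-129-5p the adjusted p for stage was 0.268 with limma and 0.216 with edgeR. Between 2iL and serum its difference was −2.42 in ES cells and −0.80 in ELA, and the adjusted p for medium was 0.155 with limma and 0.0516 with edgeR.

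Neither arm shared its seed at bases 2 to 8 with another of the 1679 mature miRNAs in RefSeq. The letters UCCCUGA of the 5p seed stand 1 base earlier in 3 miRNAs with at least 10 reads, of which the miR-125 members are known regulators of developmental timing. The 8-base run shared with mmu-miR-670-5p is in capitals.
mmu-miR-125a-5p: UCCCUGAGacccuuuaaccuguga
mmu-miR-125b-5p: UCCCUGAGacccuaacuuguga
mmu-miR-351-5p: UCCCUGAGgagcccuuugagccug
These miRNAs were far more abundant than the 5p arm. mmu-miR-351-5p measured 965 and 3792 RPM in ES cells (serum, then 2iL) and 620 and 2070 RPM in ELA. In the same order, mmu-miR-125a-5p measured 900, 2056, 328 and 1292 RPM and mmu-miR-125b-5p 63.7, 31.8, 11.8 and 47.7 RPM. The first and the second were highest in ES 2iL, the library with 0 reads of miR-670. For the 3p seed, UUCCUCA, the only such miRNA was mmu-miR-6902-5p, with at most 4 reads in a library.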

How the data were processed

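Small RNA-seq of 4 libraries was analysed. Per the labels and methods, the authors trimmed reads with Trimmomatic, mapped them with Bowtie to mm9 and counted them on miRBase release 20 miRNAs with featureCounts, and deposited RPM values over 1907 mature miRNAs. How reads mapping to several places were treated is not given in the sources used here. RPM is a share of miRNA reads, so it moves with other miRNAs. All values (100%) were whole multiples of 1 read (within 0.001 read), which gave back the reads. Differences used log2(RPM + 1), which understates changes of low miRNAs. limma 3.58.1 (stage and medium, Benjamini-Hochberg) was run on 599 miRNAs, with edgeR 4.0.16 and DESeq2 1.42.0 on the reads as alternatives, in R 4.3.3, each checked on simulated data. edgeR was run with TMM factors first; the run with library totals was added after those counts were seen, and both are given. RefSeq sequences matched 1623 of 1907 names. The members and lists were chosen with earlier results of these data known. Named miRNAs are the members, the 5 nearest profiles, hairpins within 100 kb and seed matches with at least 10 reads. Those with 0 reads in ES 2iL and at least 10 RPM in each other library are named too. A planned Fisher's exact test of the arm shares between libraries is not given, because it uses the 3p reads that chose the arm. Alternatives were pseudocount, scaling, filter, test, likeness measure, interval and grouping by description.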

Additional observations from a re-analysis of the deposited data

Results flagged for a closer look

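For 3 of the named miRNAs that passed the filter on low counts, the same contrast had opposite signs in its 2 settings, and none of these differences was tested, as each effect compares 1 library with 1 library. mmu-miR-302b-5p differed between 2iL and serum by −3.61 in log2(RPM + 1) in ES cells and by 0.18 in ELA, a gap of 3.78. mmu-miR-133a-3p differed by −3.51 in ES cells and by 0.61 in ELA, a gap of 4.12. mmu-miR-125b-5p differed between ELA and ES by −2.33 in serum and by 0.57 in 2iL, and between 2iL and serum by −0.98 in ES cells and by 1.92 in ELA, a gap of 2.90 in both cases. mmu-miR-670-5p, which did not pass the filter, had values of −0.70 in ES cells and 1.19 in ELA between 2iL and serum, from at most 5 reads in a library.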

How the results depend on the processing

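With 1 library per group, no replicate could be left out, and 587363 reads in ELA 2iL limit the 5p arm most. No paired analysis was possible because replicate numbers pair nothing with 1 library per group, but the limma fit of stage holds medium as a term. With the groups of the description field, the 4 differences of mmu-miR-670-3p were −5.57 (ELA minus ES, serum), −0.0424 (ELA minus ES, 2iL), 1.71 (2iL minus serum, ES) and 7.24 (2iL minus serum, ELA), so all 4 changed sign. Otherwise no difference of mmu-miR-670-3p changed sign. A pseudocount of 5 RPM gave 4.95 for ELA minus ES in 2iL and −3.36 for 2iL minus serum in ES, and one of 0.5 RPM gave 8.23 and −6.55. DESeq2 size factors gave 1.91 for ELA minus ES in serum and −0.52 for 2iL minus serum in ELA, where TMM gave −0.48. The numbers of miRNAs called for stage and medium, 0 and 0 with limma, were 9 and 38 with a pseudocount of 5, 28 and 55 with TMM, 84 and 112 with DESeq2 size factors, 89 and 109 with totals without the 5 most abundant miRNAs, 99 and 130 with no filter, and 50 and 81 with DESeq2's Wald test. edgeR's quasi-likelihood test gave 39 and 64 with TMM factors. With library totals, chosen after the data were seen, it gave 0 (129 at an unadjusted p under 0.05) and 39. A pseudocount of 0.5 and a filter of 20 reads left both limma counts at 0.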
